A study of Arabidopsis thaliana with 21 samples.

Results

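The comparison set the wild-type GLABRA2 (GL2) fusion against the gl2-5 null mutant, which carries no fusion protein, by chromatin immunoprecipitation followed by sequencing (ChIP-seq). Its members were the peaks of both deposited lists on chromosomes 1 to 5, 1001 in the GL2 list and 681 in the gl2-5 list, or 1682 of the 10293 such peaks in the 6 lists of the series. A GL2 peak that overlapped no gl2-5 peak by 1 bp or more was called fusion-specific, which held for 706 peaks. The remaining 295 were called shared and were matched by 294 gl2-5 peaks. The other 387 gl2-5 peaks were called gl2-5-only.

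Both genotypes were 10 day old whole seedlings of the Columbia (Col) ecotype in the homozygous gl2-5 background, and the antibody was anti-GFP. EYFP:GL2 plants carried in addition a transgene for wild-type GL2 joined to enhanced yellow fluorescent protein (EYFP), which anti-GFP antibodies bind. Per the labels, it was introduced by floral dip and rescued the mutant phenotype. The promoter of the transgene is not given in the sources used here, and whole seedlings contain many cells outside the epidermis. The series holds 3 ChIP libraries and 1 input for GL2, and 2 ChIP libraries and 1 input for gl2-5. The protocol label speaks of 3 replicates of each genotype, and the file headers do not state which libraries were merged into each list. Replicates were merged before calling, so each value below is a single measurement with no replicate error. No difference between the genotypes was tested.

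In the plant epidermis, GL2 works as a transcription factor of class IV of the homeodomain leucine zipper (HD-Zip) family. It promotes trichome formation in the shoot, represses hair formation in non-hair cells of the root and is needed for seed coat mucilage. Factors of this class bind DNA as dimers, and the L1 box of epidermal promoters is their known target. In a ChIP against a tag, plants without the tag show which sites are recovered without the fusion protein, so the gl2-5 list serves as the background.

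The depth behind the lists was low after removal of duplicates. Of 19652687 GL2 and 4872999 gl2-5 ChIP tags, 352707 and 227071 were retained at 1 tag per position. The retained GL2 set was thus 1.55 times as deep as the gl2-5 set. The inputs retained 1584592 tags for GL2 and 1268412 for gl2-5. Peaks held 28.8% of the retained GL2 tags and 12.5% of the retained gl2-5 tags. The sparsest GL2 peaks had 6 tags and the sparsest gl2-5 peaks 5.

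Most GL2 peaks were listed in the fusion line alone, but most of these were sparse. The fusion-specific share was 70.5% of the GL2 list (95% Wilson interval 67.6 to 73.3), and 56.8% of the gl2-5 list (53.1 to 60.5) was likewise absent from the GL2 list. Intervals beside shares below are of this kind. They hold for counting error alone and take no account of clustering along a chromosome. Fusion-specific peaks had a median of 7 tags (quartiles 6 and 23), and 38.4% of them had the minimum of 6. Shared GL2 peaks had a median of 19 tags (12 and 30), and 3.39% were at that minimum. The gl2-5-only peaks had a median of 5 tags (5 and 6), and 56.8% were at the minimum of 5. Shared sites therefore held more tags than unshared sites in both lists, with wide overlap between the classes.

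**Figure D1:**
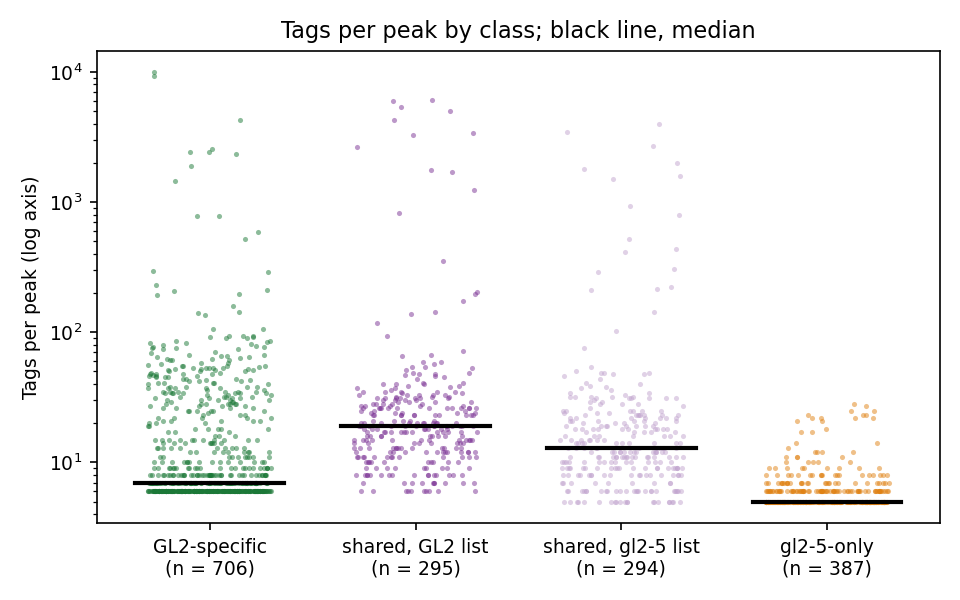
Tags in each peak (log axis) for the 4 sets of peaks, 1 point per peak, with the median as a black line. The medians are 7 tags for fusion-specific, 19 and 13 for shared peaks in the GL2 and gl2-5 lists, and 5 for gl2-5-only peaks, none of which exceeds 28 tags.

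The caller's own ratings followed the same order. The deposited score, minus 10 times the log10 of the p-value, had a median of 77.4 for fusion-specific, 138 for shared GL2 and 77.3 for gl2-5-only peaks. The deposited false discovery rate (FDR) was 5% or less for 214 of the 706 fusion-specific peaks and for 214 of the 295 shared GL2 peaks. In the gl2-5 list, 19 of the 294 shared and 0 of the 387 gl2-5-only peaks were at or below it. The deposited fold enrichment ran the other way, with medians of 25.4 for fusion-specific, 15.1 for shared GL2 and 42.5 for gl2-5-only peaks. For shared gl2-5 peaks the median was 22.8. Within each list, the class with fewer tags thus had the higher folds. Scores, folds and FDR values come from separate calls at unequal depth and were not compared between the lists as amounts.

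Length separated the classes mainly through a few wide regions. The median length was 130 bp for fusion-specific, 98 bp for shared GL2 and 114 bp for gl2-5-only peaks. Peaks over 1 kb numbered 13 among the fusion-specific, 11 among the shared GL2 and 0 among the gl2-5-only peaks, and all 11 wide gl2-5 peaks were shared. The 13 wide fusion-specific peaks covered 70375 bp and held 11.1% of all retained GL2 tags. All 13 lay in gene-poor bins, which are 500 kb intervals whose count of protein-coding genes is below 50% of the median bin and which lie mostly around the centromeres. The 400 fusion-specific peaks outside gene-poor bins together held 0.929% of the retained GL2 tags. The 231 narrow shared peaks outside them held 1.64% of the GL2 tags, and the matching 227 gl2-5 peaks held 1.95% of the gl2-5 tags.

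By position, fusion-specific peaks were the most concentrated class. The gene-poor bins numbered 38 of 235. They held 43.3% of the fusion-specific peaks (39.7 to 47.0), 21.4% of the shared GL2 peaks (17.1 to 26.4) and 24.5% of the gl2-5-only peaks (20.5 to 29.1). The 5 fullest of 235 bins held 24.4% of the fusion-specific peaks, against 8.27% of the gl2-5-only peaks in that class's own 5 fullest bins. A bin on chromosome 5 (11500001 to 12000000), with 6 protein-coding genes, held 70 fusion-specific, 6 shared and 1 gl2-5-only peak. The adjoining bin (12000001 to 12500000) held 31, 0 and 1. On chromosome 3, the bin from 13500001 to 14000000 held 33, 2 and 0. These centromere-proximal bins were thus filled mainly in the GL2 list. Chromosome 5 had the lowest shared part of its GL2 peaks, 22.8% (18.3 to 27.9), and chromosome 2 the highest, 38.7% (31.7 to 46.2).

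In gene-rich bins, the share of GL2 peaks also present in the null mutant rose with the tag count of the peak. It was 4.05% of the 222 peaks with 6 tags (2.15 to 7.52) and 18.8% of the 154 with 7 to 9 tags (13.4 to 25.7). It was 58.3% at 10 to 14 tags (47.7 to 68.3), 80.2% at 15 to 29 (72.0 to 86.4) and 91.8% at 30 to 99 (80.8 to 96.8). All 7 gene-rich peaks of 100 tags or more were shared. Well-supported GL2 peaks in gene-rich bins were thus mostly sites that the plants without the fusion also showed. Of the 256 gene-rich GL2 peaks with at least 10 tags, 194 were shared, or 75.8% (70.2 to 80.6).

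Gene-poor bins followed that order only up to 29 tags. There the shared part was 1.69% at 6 tags, 12.5% at 7 to 9, 32.0% at 10 to 14 and 37.3% at 15 to 29 (26.7 to 49.3). Above that it was 8.33% of the 132 peaks at 30 to 99 tags (4.72 to 14.3) and 31.6% at 100 tags or more (19.1 to 47.5). The median fold of the 30 to 99 class was 8.14 in these bins and 10.1 in gene-rich bins. Peaks in repeat-rich sequence can draw tags from many copies, and how the alignment placed such tags is not given in the sources used here. Seen from the control, every gl2-5 peak of 30 tags or more, 50 in all, overlapped a GL2 peak in either kind of bin. No gl2-5-only peak exceeded 28 tags.

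**Figure D2:**
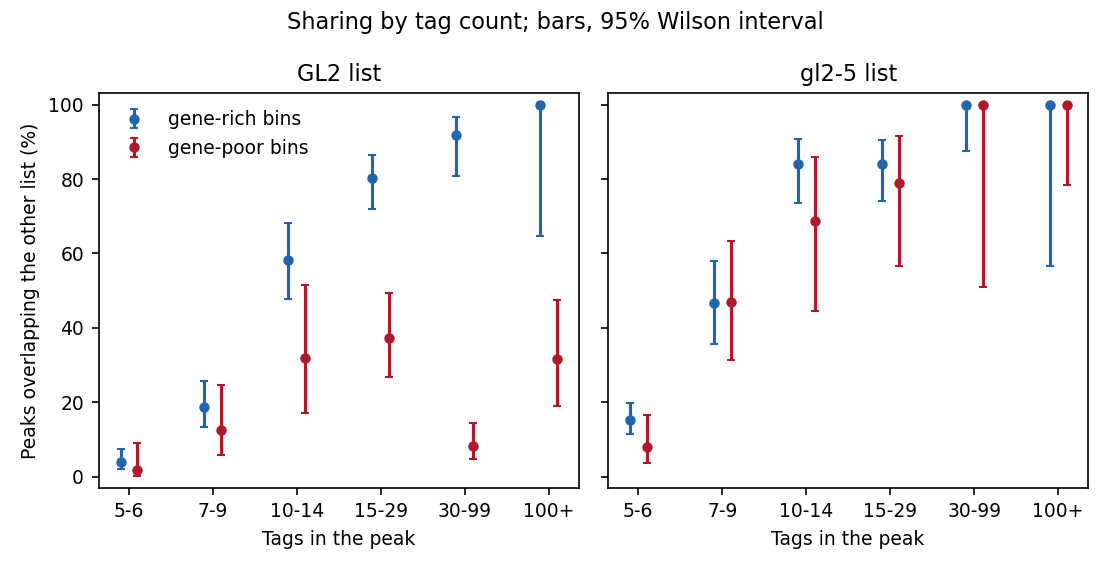
Percentage of peaks that overlap a peak of the other list, by tags in the peak, for the GL2 list (left) and the gl2-5 list (right) in gene-rich (blue) and gene-poor (red) bins, with 95% Wilson intervals. In gene-rich bins the GL2 values climb from 4.05% to 100%, whereas in gene-poor bins they climb to 37.3% at 15 to 29 tags and are 8.33% at 30 to 99 tags.

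Unequal depth limits the fusion-specific class more than the gl2-5-only class. Scaled to the retained tags, the 5 tags of the sparsest gl2-5 peak correspond to 7.77 GL2 tags, so a site of equal strength with 6 or 7 GL2 tags lies under the lowest gl2-5 count. This applied to 365 of the 706 fusion-specific peaks, for which a difference from gl2-5 was not detectable at this depth. It also applied to 20 shared GL2 peaks, which were called in gl2-5 all the same. Of the 616 GL2 peaks within reach, 341 were fusion-specific, or 55.4% (51.4 to 59.2). In the other direction, all 387 gl2-5-only peaks scaled to more tags than the lowest GL2 count.

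Where both lists had a peak, the GL2 tags were mostly no higher than the gl2-5 tags for the depth. Peaks of a pair lay at nearly the same place, with a median of 4 bp between the summits and at least 90% of the shorter peak covered in 270 of 295 pairs. Per 100000 retained tags, the median ratio of GL2 to gl2-5 tags was 0.828 (95% interval of the median from order statistics, 0.784 to 0.881). Its quartiles were 0.670 and 1.22. The exact 95% counting interval of the ratio included 1 in 265 pairs, lay above 1 in 16 and below 1 in 14. Among the 285 pairs of 1 peak with 1 peak, it lay above 1 in 14 and below 1 in 6. The remaining pairs below 1 lay in PDF2 and the GL2 gene, where split GL2 peaks met 1 wider gl2-5 peak. Pairs enter only if called in both lists, so sites under the threshold in either list are missing. Relative to all tags before removal of duplicates, the median ratio was 0.319. The retained tags used for scaling include those of peaks over 1 kb. In the GL2 list, such peaks held 11.1% (fusion-specific) and 11.6% (shared) of the retained tags, against 8.64% in the gl2-5 list. A larger part in wide peaks lowers the scaled tags of all other GL2 peaks, and ratios without these tags were not computed.

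**Figure D3:**
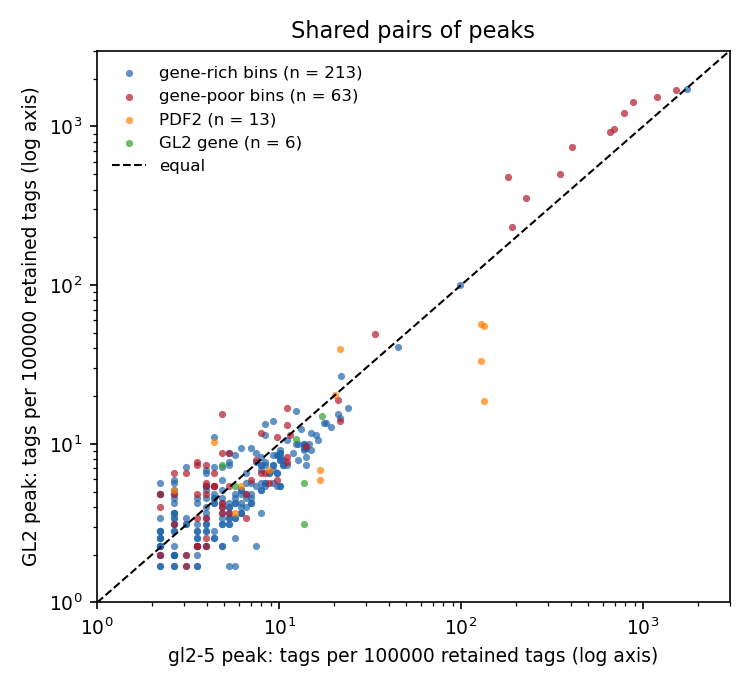
Tags per 100000 retained tags (both axes log) of each shared GL2 peak against the gl2-5 peak it overlaps most, in gene-rich bins (blue), gene-poor bins (red), PDF2 (orange) and the GL2 gene (green). Points lie along the line of equal values, with the wide gene-poor peaks above it and several PDF2 pairs below it where a wide gl2-5 peak meets a split GL2 peak.

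The ratio differed by region. In gene-poor bins its median was 1.18 (0.901 to 1.38; 63 pairs) and in gene-rich bins 0.787 (0.751 to 0.858; 232 pairs). The 11 wide pairs had a median ratio of 1.44, and the counting interval lay above 1 in 10 of them. The lone exception was the peak at the start of chromosome 2, at AT2G01008 (993 to 10508 in the GL2 list), in the region of the ribosomal RNA gene array of that arm. It held 6092 GL2 and 3951 gl2-5 tags, a ratio of 0.993 (0.954 to 1.03). The peak in AT1G40104 on chromosome 1 (15081902 to 15086060) held 4297 and 1796 tags, a ratio of 1.54 (1.46 to 1.63). The peak in AT2G07981 on chromosome 2 (3614915 to 3617854) held 2625 and 924, a ratio of 1.83 (1.696 to 1.97). Among wide regions called in both lists, those in gene-poor bins thus held more of the tags with the fusion. The 13 wide fusion-specific regions had no overlapping gl2-5 peak, though that at AT2G08986 lay 80 bp from one. With at most 1 tag kept per position and strand, a filled region cannot gain further tags: 69.7% of all positions were occupied in the wide GL2 peak on chromosome 3 (13588777 to 13592647), against 35.5% in its gl2-5 counterpart.

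Among the shared peaks of up to 1 kb near genes, the highest-scoring site was in PDF2 (PROTODERMAL FACTOR 2, AT4G04890), which encodes a class IV HD-Zip factor that acts with ATML1 in the outermost cell layer. Over the whole gene, 13 GL2 peaks held 947 tags and 10 gl2-5 peaks held 793, or 268 and 349 per 100000 retained tags. All peaks of this cluster were shared. The ratio of GL2 to gl2-5 was 0.769 (0.699 to 0.846). Per retained tag, the cluster was therefore denser in the plants without the fusion, on a scale that includes the tags of wide peaks. This summed ratio was close to the median of all gene-rich pairs, 0.787 (0.751 to 0.858), which include those of PDF2. Single pairs in PDF2 spread widely, from 0.139 to 2.32. Of these 13 pairs, the interval lay above 1 in 2 and below 1 in 6, against 3 and 13 of all 232 gene-rich pairs. In the GL2 gene itself (AT1G79840), 8 GL2 peaks held 180 tags and 6 gl2-5 peaks held 127, or 51.0 and 55.9 per 100000, a ratio of 0.912 (0.723 to 1.15). The fusion line carries extra copies of GL2 sequence in its transgene, and the gl2-5 line does not. The strongest GL2 peak in this gene (chromosome 1, 30039605 to 30040019) held 53 tags against 39 in the null mutant.

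Other shared sites were higher in the fusion line in tags, though few beyond counting error. At SQN (SQUINT, AT2G15790), which encodes a cyclophilin involved in the timing of the vegetative phase change, the peak on chromosome 2 (6880784 to 6880905) held 39 GL2 and 10 gl2-5 tags. The ratio was 2.51 (1.23 to 5.64), one of 3 gene-rich pairs with an interval above 1, and the other two lay in PDF2. The peak 10 bp from AT2G40990 (chromosome 2, 17106953 to 17107094) held 33 and 14 tags, a ratio of 1.52 (0.790 to 3.07). The peak in ARF14, an auxin response factor gene (chromosome 1, 13108887 to 13108976), held 26 and 9 tags, a ratio of 1.86 (0.845 to 4.51). The peak 33 bp from AT3G55960 (chromosome 3, 20763028 to 20763141) held 20 and 5, a ratio of 2.58 (0.938 to 8.78). For these last 3 sites the interval included 1. The largest ratio of all pairs, 3.16 (1.63 to 6.70), belonged to a peak on chromosome 2 (6002257 to 6002492; 54 and 11 tags) with no protein-coding gene within 1 kb.

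Further shared sites lay on both sides of equal values. The peak 31 bp from AT2G30740 (chromosome 2, 13095183 to 13095388) held 57 GL2 and 28 gl2-5 tags, a ratio of 1.31 (0.820 to 2.14). The peak in AT1G65985 (chromosome 1, 24568617 to 24568720) held 37 and 25, a ratio of 0.953 (0.558 to 1.65). At NAC067, a NAC transcription factor gene 318 bp from the summit (chromosome 4, 659448 to 659545), the counts were 26 and 21, a ratio of 0.797 (0.431 to 1.49). None of these 3 differed from 1 beyond counting error. In AT3G23460 (chromosome 3, 8414073 to 8414174), the counts were 54 and 48, or 15.3 and 21.1 per 100000 retained tags, a ratio of 0.724 (0.482 to 1.09). The deposited folds there were 28.6 and 510. Near AT1G75900 (784 bp, chromosome 1, 28497998 to 28498078), 26 GL2 tags stood against 32 gl2-5 tags, a ratio of 0.523 (0.299 to 0.906). Of these sites, only that near AT1G75900 was higher in the null mutant beyond counting error.

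Among the fusion-specific peaks of up to 1 kb, 20 were selected for the highest score with a protein-coding gene within 1 kb. All 20 lay in gene-rich bins, and they held between 7 and 84 tags. The peak with most tags lay 644 bp from AT5G50140 (chromosome 5, 20395143 to 20395343) and held 84 tags at a fold of 28.9. The next in tags (chromosome 1, 4091009 to 4091187) held 48 tags at a fold of 18.8 and lay 273 bp from the extensin-like gene ELP. Only 4 of the 56 gene-rich GL2 peaks with 30 tags or more were fusion-specific. These 2 were joined by a peak of 30 tags in AT4G05612 (chromosome 4, 2959572 to 2959733, FDR 7.58%) and one of 41 tags 3024 bp from the nearest gene (chromosome 4, 2956013 to 2956473, FDR 10.9%), both named after their values were seen.

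Further fusion-specific peaks lay in or beside genes of varied function. AT2G01460 (chromosome 2, 208272 to 208377) had 26 tags at the highest fold of the class, 184, and AT5G24610 (chromosome 5, 8428139 to 8428232) had 20 tags at a fold of 142. A peak 18 bp from AT2G32560 (chromosome 2, 13824563 to 13824692) held 18 tags at a fold of 120.5. A peak 7 bp from NP3, which encodes a mitogen-activated protein kinase kinase kinase (chromosome 3, 1818680 to 1818772), held 16 tags at a fold of 61.9. Scaled to the gl2-5 depth, each of these would exceed the lowest gl2-5 count. The peak in AT1G45180 (chromosome 1, 17101887 to 17101979) also held 16 tags, and that 300 bp from TIR, a gene for a Toll/interleukin-1 receptor domain protein (chromosome 1, 27440652 to 27440811), held 15. At RFR1, a gene for a Mediator subunit, with the summit in the neighbouring AT3G23600 (chromosome 3, 8473594 to 8473676), there were 14 tags. ALPHA DOX2, which encodes a fatty acid dioxygenase, had 12 tags 860 bp away (chromosome 1, 27708478 to 27708558). AT4G39900 beside UBP3 had 11, and PEX13, a gene of peroxisomal protein import, had 10 (chromosome 3, 2413207 to 2413287).

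Several of these 20 peaks had a high score with few tags. The peaks in AT5G41970, AT1G55840 and AT4G16745, and those near AT5G62710 and AT4G36640, held 8 tags each. The peaks in DMS11, which encodes a MORC family protein of gene silencing, and in AT3G56510 held 7 tags each at a fold of 49.6. The peak 269 bp from AT3G25716 (chromosome 3, 9373567 to 9373723) held 21 tags and scored 175, whereas that in AT5G41970 scored 205 with its 8 tags. A count of 7 lies under the 7.77 tags that match the sparsest gl2-5 peak, and 8 lies just above it.

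The gl2-5-only peaks were the sparsest class and lay in genes more often. Their 15 highest-scoring peaks near protein-coding genes held between 6 and 8 tags. A peak 263 bp from CEL2, a cellulase gene, and within 1 kb of PGA4, a polygalacturonase gene (chromosome 1, 612898 to 612971), held 8 tags at a fold of 84.9. The peak in AT1G11920 (chromosome 1, 4023645 to 4023716) had the same tags and fold. Those in AT1G61170, AT1G16690, AT4G32620 and SD1-29, a receptor kinase gene of immunity, held 7 each, as did that in GH9B6. Peaks of 6 tags lay in ATR, a kinase gene of the DNA damage response (chromosome 5, 16344816 to 16344882), EIF4B2, a translation initiation factor gene, UMAMIT13, an amino acid transporter gene, and ALDH3I1, an aldehyde dehydrogenase gene. All 15 had an FDR between 11.5% and 15.2%. The most tags of any gl2-5-only peak, 28, were on chromosome 3 (14287597 to 14287760), 10256 bp from the nearest protein-coding gene, where 43.5 GL2 tags would match it.

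Relative to genes, the classes differed in the balance between gene bodies and flanks. The summit lay in a protein-coding gene for 32.4% of the fusion-specific (29.1 to 35.98), 35.6% of the shared GL2 (30.3 to 41.2) and 56.8% of the gl2-5-only peaks (51.9 to 61.7). The 1 kb flanks held 14.02% (11.7 to 16.8), 27.8% (23.0 to 33.2) and 10.6% (7.91 to 14.1) in that order. Pseudogenes held 8.22%, 3.39% and 16.5%. The parts of the genome that these places cover are not given here, so the shares compare the classes only with each other. Within gene-rich bins, protein-coding genes held 54.0% (49.1 to 58.8), 42.2% (36.1 to 48.7) and 72.9% (67.6 to 77.7). Shared sites thus sat beside genes more often than sites of either list alone. Counting the gene and its flanks together, 78.8% of the fusion-specific, 77.2% of the shared and 86.3% of the gl2-5-only peaks in gene-rich bins were that close to a gene. No exon positions were used here, so promoters, introns and untranslated regions were not told apart.

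**Figure D4:**
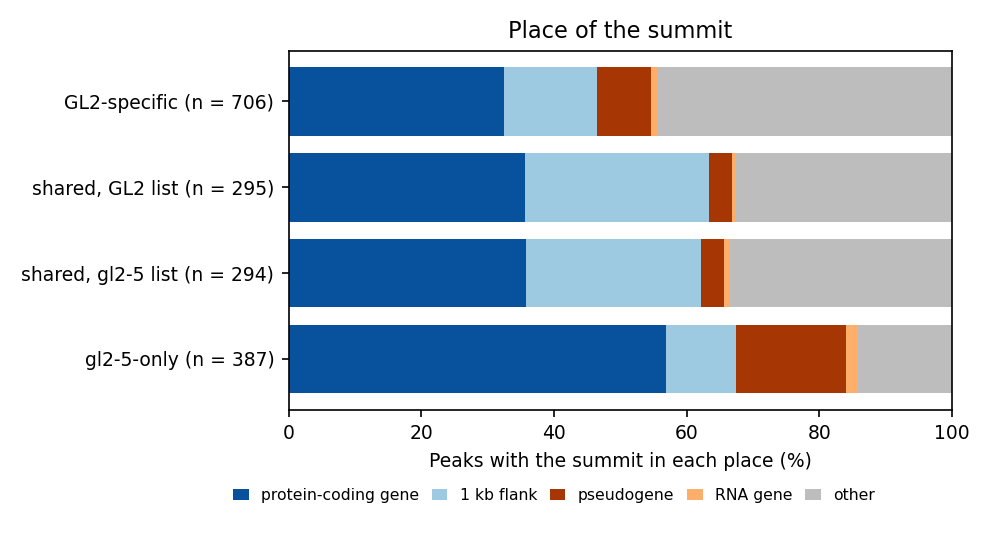
Percentage of peaks of each class whose summit lies in a protein-coding gene, within 1 kb of one, in a pseudogene, in an RNA gene or elsewhere. Flanks are widest for shared peaks at 27.8% in the GL2 list, gene bodies for gl2-5-only peaks at 56.8%, and the remainder for fusion-specific peaks at 44.5%.

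Genes were counted for each class by the summits within 1 kb. Of 27432 protein-coding genes, 448 (1.63%) had a fusion-specific summit within 1 kb, 242 (0.882%) a shared one and 351 (1.28%) a gl2-5-only one. Fusion-specific and gl2-5-only peaks met at 6 genes, which were 1.34% of the former genes and 1.71% of the latter, near the 1.28% and 1.63% of all genes with a peak of the other class. These 6 were NFXL1, GL2, Nek7, AT3G12190, AT3G43990 and AT4G38760. Shared and gl2-5-only peaks met at 2 genes (0.826% and 0.570%), GL2 and AT5G07310. These genes were named after their values were seen.

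Few of the listed genes were near a peak. The shares rest on 1 to 4 genes per class, and their difference from the shares of all genes was not tested. GL2 itself was counted for each class, and the fusion-specific genes included the housekeeping gene TUB2. Across 10 lists, 7 of them epidermal, with 105 genes, 4 genes (3.81%) had a fusion-specific, 3 (2.86%) a shared and 1 (0.952%) a gl2-5-only peak within 1 kb, beside 1.63%, 0.882% and 1.28% of all protein-coding genes. Among the 92 members of the 7 epidermal lists, 3 genes (3.26%) had a fusion-specific, 3 (3.26%) a shared and 1 (1.09%) a gl2-5-only peak. Of 16 class IV HD-Zip genes, GL2, PDF2 and ATML1 had peaks and the other 13 had none. ATML1 (AT4G21750), the close relative of PDF2 in the protoderm, had a fusion-specific peak in the gene (chromosome 4, 11558947 to 11559095) with 11 tags, a fold of 49.6 and an FDR of 2.31%. It overlapped no peak of the altered forms. PDF2 had 13 peaks in the GL2 list, all shared, so the paralogs fell in different classes. In the GL2 gene, the fusion-specific peaks held 6 and 7 tags and lay 97 bp and 56 bp from a gl2-5 peak, and a gl2-5-only peak held 5.

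Of 21 trichome regulators, MYB23 (AT5G40330), a MYB factor that initiates and extends trichomes, was the only member with a peak. It was shared (chromosome 5, 16127724 to 16127823), with 20 GL2 tags against 6 gl2-5 tags. Per 100000 retained tags these are 5.67 and 2.64, a ratio of 2.15 (0.831 to 6.53), which included 1. No peak of either list lay within 1 kb of GL1, GL3, EGL3, TTG1, TRY or CPC, which pattern trichomes and root hairs. Among 15 root hair genes, RHD3, which encodes a GTPase that shapes the endoplasmic reticulum, had a fusion-specific peak of 6 tags 952 bp away (chromosome 3, 4564374 to 4564464). RHD6, RSL1, RSL2, LRL1 and LRL2, basic helix-loop-helix genes of root hair growth, had none. The lists for seed coat mucilage (10 genes), anthocyanin (11), cuticle and protoderm (12) and stomatal lineage (7) had no member with a peak, and neither did class III HD-Zip (5) or photosynthesis genes (4). Of 4 housekeeping genes, the tubulin gene TUB2 had a fusion-specific peak of 6 tags (chromosome 5, 25182824 to 25182982), as many as that near RHD3. A gene without a peak was below the threshold at this depth and was not shown to be unbound.

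The lists of the altered GL2 fusions gave a further readout that the classes did not use. Of the shared GL2 peaks, 94.9% (91.8 to 96.9) overlapped a peak in at least 1 of these 4 lists, against 44.9% (41.3 to 48.6) of the fusion-specific and 23.8% (19.8 to 28.3) of the gl2-5-only peaks. By list, 89.8% of the shared, 26.1% of the fusion-specific and 7.24% of the gl2-5-only peaks recurred for gl2_E375G R392M. For gl2_Amo the shares were 84.7%, 38.2% and 13.7%, for gl2_dSTART 63.7%, 32.2% and 8.01%, and for gl2_dZip 31.2%, 12.9% and 1.29%. In each of the 4 lists, over all bins together, shared sites thus recurred most and gl2-5-only sites least. These lists differ in length and depth, and all fusion lines share the EYFP tag and the transformation.

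**Figure D5:**
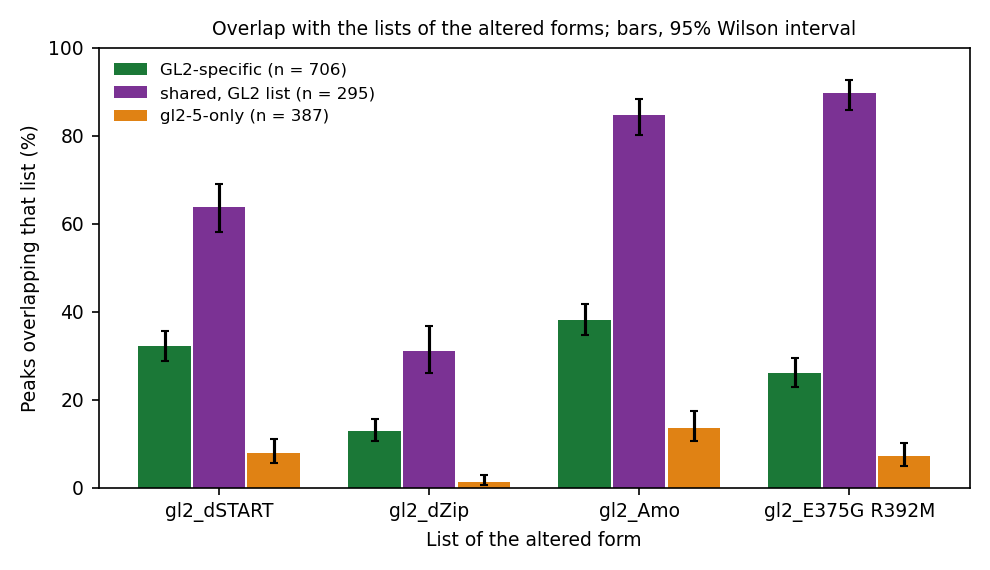
Percentage of fusion-specific, shared and gl2-5-only peaks that overlap a peak in the list of each altered GL2 fusion, with 95% Wilson intervals. Shared peaks are highest for each list, from 31.2% for gl2_dZip to 89.8% for gl2_E375G R392M, and gl2-5-only peaks lowest, at 1.29% to 13.7%.

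Recurrence in at least 1 altered list rose with the tag count within the fusion-specific class. It was 94.0% for the 268 peaks with at least 10 tags (90.5 to 96.3) and 14.8% for the 438 sparser ones (11.8 to 18.5). By region it was 72.5% in gene-poor bins (67.3 to 77.2) and 23.8% in gene-rich bins (19.8 to 28.2). For gl2-5-only peaks it was 23.2% in gene-poor bins (15.8 to 32.6) and 24.0% in gene-rich bins (19.4 to 29.2). Over all tag counts together, fusion-specific peaks thus recurred more than gl2-5-only peaks in gene-poor bins, but not in gene-rich bins. Among gene-rich peaks with at least 10 tags they did recur more, with 49 of 62 fusion-specific against 4 of 23 gl2-5-only peaks. Of these 49 fusion-specific peaks, 37 recurred with gl2_Amo, 33 with gl2_E375G R392M, 20 with gl2_dSTART and 11 with gl2_dZip. Over all bins, recurrence in the gl2-5-only class did not rise with the tag count. It was 12.5% for the 32 peaks with at least 10 tags (4.97 to 28.1) and 24.8% for the 355 sparser ones (20.6 to 29.5). Well-supported fusion-specific sites were therefore mostly not confined to the wild-type fusion.

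The other 13 gene-rich peaks with at least 10 tags were in the GL2 list alone of the 6 lists, and held between 10 and 21 tags. They included the peaks described above in ATML1, AT1G45180 and PEX13 and near AT3G25716. Others, named after their values were seen, lay 620 bp from WAK5, a wall-associated kinase gene (chromosome 1, 7433003 to 7433139, 11 tags), and in AT5G47970 beside RABA4C, a Rab GTPase gene (chromosome 5, 19422666 to 19422807, 11 tags). A peak of 10 tags lay in COR27, a cold-regulated gene (chromosome 5, 17197816 to 17197943). Another of 10 tags lay 415 bp from NRT1:2, a nitrate transporter family gene (chromosome 1, 26300994 to 26301151).

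At the limit of the overlap rule, no shared pair rested on an overlap of a few bp, but some fusion-specific peaks lay close to a gl2-5 peak. The smallest overlap of any shared pair was 57 bp, in BPM3 (chromosome 2, 16585196 to 16585286; 7 GL2 and 5 gl2-5 tags), and the next were 59 bp near AT2G39170, 61 bp and 62 bp, the last at 2 sites. The closest fusion-specific peak lay 8 bp from a gl2-5 peak (chromosome 4, 1987118 to 1987259; 6 GL2 tags against 6), followed by gaps of 56, 64, 80 and 97 bp. The 64 bp gap was on chromosome 5 (11709683 to 11710665, 517 GL2 tags). The 80 bp gap was at AT2G08986 (chromosome 2, 3617935 to 3628098, 9265 GL2 tags). These large peaks thus adjoined wide gl2-5 peaks, and their class rests on these short gaps. Of all fusion-specific peaks, 8 lay within 500 bp of a gl2-5 peak, and the median distance was 64886 bp.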

How the data were processed

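Per the file headers, the authors called peaks with MACS 1.4.2 (p cutoff 1e-05, effective genome size 1.35e+08 bp) on 1 merged ChIP alignment per genotype against 1 input, with 1 tag kept per position. The fitted fragment size was 54 bp for GL2 and 56 bp for gl2-5 at a tag length of 51 bp, although the labels give libraries of about 320 bp. Its part in the calls was not tested. The submitters' processing notes name Bowtie2 2.2.3 and TAIR10. Deposited values are tag counts (not scaled to depth), a score, a fold (a ratio to the local background), an FDR in percent, and positions.

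The submitted lists were compared in Python 3.11.15 with SciPy 1.17.1; the overlap routine was tested on simulated peaks against bedtools 2.31.1. Tags were scaled to retained tags, and ratios have exact Clopper-Pearson intervals for counting error between these merged libraries. PCR reads are not independent molecules. Genes came from a RefSeq table (TAIR10.1), used for names and neighbours; all 105 list members matched by locus tag. Positions are TAIR10. No genome sequence was used here, so no sequences are shown and the planned motif search was not run. Of the altered-form lists only positions were used, leaving 16 columns aside. Named peaks were those of highest score per class near genes, the extremes of overlap and tag ratio, and list members. Members, lists and rules were chosen with earlier results of these data known. The genes near both fusion-specific and shared peaks are not reported here.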

Additional observations from a re-analysis of the deposited data

How the results depend on the processing

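Of 52 alternative values, 27 moved and 25 stayed within the 95% interval of the reported value, or within 1.5 times it for gene counts. Redefining overlap (50% of the shorter peak, summits within 100 bp, peaks within 500 bp) left the unshared shares of both lists in that range, as did leaving out wide peaks or the PDF2 and GL2 loci. The fusion-specific share of 70.5% moved to 61.6% at a score of at least 100, 62.0% at equal list length, 63.3% with at least 10 tags in both lists, 55.4% within reach of the gl2-5 depth and 50% at an FDR of 5% or less. With settings chosen after seeing the data, it was 63.3% in gene-rich bins, 82.9% in the gene-poor ones and 24.2% among gene-rich peaks with at least 10 GL2 tags. The gl2-5-only share of 56.8% moved to 51.9% at a score of at least 100, 62.1% at equal length, 17.5% with at least 10 tags in both lists and 13.1% in gene-rich bins with at least 10 gl2-5 tags, the last chosen after seeing the data. The limit of 10 tags in both lists was not scaled to depth, and it also removed sparser peaks of the other list. Of 518 GL2 peaks with at least 10 tags, 328 were unshared by it, but only 268 overlapped no gl2-5 peak of any tag count. For the 229 such gl2-5 peaks, these counts were 40 and 32. For a gene within flanks of 0 bp, 500 bp and 2 kb, the shares were 32.4%, 42.6% and 55.0% for fusion-specific and 35.6%, 56.6% and 74.9% for shared peaks. For gl2-5-only peaks they were 56.8% at 0 bp and 74.2% at 2 kb. The 448 genes became 228 at 0 bp, 692 at 2 kb and 54 with at least 10 tags. The gene-poor share of 43.3% became 76.9% with at least 10 tags and 37.0% with bins below 25% of the median gene number. The median ratio of 0.828 became 0.319 relative to all tags and, in a setting chosen after seeing the data, 1.18 in gene-poor bins. The cause of these shifts was not tested beyond what each setting removes. No paired analysis was possible because libraries were merged before calling, and for the same reason no library could be left out.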

Other observations

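Several genes carried more than 1 unshared peak. Among the 7 genes with 2 fusion-specific peaks within 1 kb were NUA, which encodes a nuclear pore protein, NRT1:2, a nitrate transporter family gene, and HMGA, a gene for a chromatin protein. The others were GL2, AT2G20320, MEE38 and AT4G05612. Only AT4G32620 had 2 gl2-5-only peaks. Outside the nuclear chromosomes, the gl2-5 list held 2 peaks on the mitochondrial sequence, with 5 tags (200117 to 200176) and 22 tags (245713 to 245846), and the GL2 list held 0.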
